A study of Mus musculus with 2 samples.

Results

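Levels of 7 genes of the tumour necrosis factor (TNF) superfamily were followed in single cells of injured mouse quadriceps. The 7 were chosen by symbol among the 32285 genes of the deposited tables: the ligands Tnf, Tnfsf12 and Tnfsf9 and the receptors Tnfrsf1a, Tnfrsf1b, Tnfrsf12a and Tnfrsf9. All 7 had at least 1 UMI (unique molecular identifier, a count of captured transcripts) in both libraries. Wild-type C57BL/6J mice received 100 µl of 1.2% (w/v) BaCl2, a salt that destroys muscle fibres, in the quadriceps, and muscle mononuclear cells were recovered at 2 h or at 9 h, cryo-preserved, thawed and sequenced with 10x 3' v3.1 chemistry. Both groups share the genotype and the injury and differ in time; uninjured muscle is not analysed here, and the labels do not state the age or sex of the mice or how many made up a library. The series asks whether CCL2 from fibro-adipogenic progenitors (FAPs), the stromal cells that lie between muscle fibres, is needed for monocytes and macrophages to enter injured muscle.

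Each time had 1 library, so no difference between times has a replicate check, no test across samples was possible, and time and library cannot be told apart. The 2 h library kept 4900 cells (median 4519 UMIs per cell) and the 9 h library 8147 cells (median 2327), with 12 kept barcodes found in both. Levels are a gene's UMIs summed over the cells of a class and scaled to the class's total, given as CPM, and intervals are exact 95% Poisson or binomial intervals, which cover counting error only. Cells were clustered without the TNF superfamily genes and classes were named from marker genes; "FAP-like" means a cluster with the FAP markers. FAP-like cells (2004 at 2 h, 2376 at 9 h) and neutrophil-like cells (1634 and 4287) were the largest classes, followed by endothelial-like (283 and 549), resident macrophage-like (310 and 234), monocyte-like (175 and 360) and dendritic-like cells (143 and 117). These 6 classes were compared between times, and levels are also given for smaller classes with at least 50 cells. Each of the 6 carried its own markers in both libraries, but the summed level of the 15 FAP markers in FAP-like cells was 68083 CPM at 2 h and 28009 CPM at 9 h. No cluster of FAP-like cells held 50 cells of both libraries: the Col15a1-led (1416 cells) and Sema3c-led (575 cells) clusters held the 2 h cells, and the Cxcl5-led (1227 cells), Krtdap-led (645 cells) and Saa1-led (460 cells) clusters the 9 h cells.

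TNF ligands are trimers made as membrane proteins, and many are also shed. TNF itself is a leading product of activated neutrophils, monocytes and macrophages; it binds TNFR1 (Tnfrsf1a), which is found on most cells and carries a death domain, and TNFR2 (Tnfrsf1b), which lacks one and is found mainly on blood-derived and endothelial cells. TWEAK (Tnfsf12) binds Fn14 (Tnfrsf12a), a small receptor known for its induction in injured tissue, muscle included. The ligand 4-1BBL (Tnfsf9) on antigen-presenting cells binds 4-1BB (Tnfrsf9), a costimulatory receptor of activated T and NK cells that dendritic cells can also carry.

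On mm10, Tnf lies on chromosome 17 (35199381 to 35202007, minus strand) and Tnfrsf12a on the same chromosome (23675445 to 23677468, minus strand). Tnfsf9 is the third member there (57105325 to 57107757, plus strand), Tnfrsf1a is on chromosome 6 (125349362 to 125362484, plus strand), Tnfsf12 on chromosome 11 (69686250 to 69695849, minus strand), and Tnfrsf1b (145213463 to 145246870, minus strand) and Tnfrsf9 (150914562 to 150946102, plus strand) on chromosome 4. All 7 are protein-coding. The 250 bases before the RefSeq start (GRCm38.p6) are shown for the ligand and the receptor whose levels differed most in UMIs between the libraries, Tnf (chr17:35202008-35202257, minus strand) and Tnfrsf12a (chr17:23677450-23677699, minus strand), 5′ to 3′ in the direction of transcription. Capitals mark matches on either strand to TATAAA, the TATA box core, and GGGCGG, the GC box.
Tnf: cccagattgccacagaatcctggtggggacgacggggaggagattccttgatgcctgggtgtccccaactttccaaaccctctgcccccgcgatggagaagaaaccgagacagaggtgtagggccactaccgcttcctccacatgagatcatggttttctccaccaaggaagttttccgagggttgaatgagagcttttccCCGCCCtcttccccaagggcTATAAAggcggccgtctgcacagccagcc
Tnfrsf12a: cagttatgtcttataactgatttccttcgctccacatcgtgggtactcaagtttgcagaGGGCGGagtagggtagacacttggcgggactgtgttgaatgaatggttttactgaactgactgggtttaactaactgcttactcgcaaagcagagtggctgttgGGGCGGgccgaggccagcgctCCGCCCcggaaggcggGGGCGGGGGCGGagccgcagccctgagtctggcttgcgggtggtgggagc
The Tnf window held 1 TATAAA, 29 to 24 bases before the start, and 1 GGGCGG, 49 to 44 bases before it on the reverse strand. The Tnfrsf12a window held no TATAAA and 5 GGGCGG matches between 191 and 39 bases before the start. Among 32851 mouse windows of the same length, 12.4% held a TATAAA and 32.7% a GGGCGG. Neither window held TGANTCA (6.75% of all windows), TGACGTCA (1.55%) or the NF-kB consensus (7.25%). These are matches of letters, not binding sites, and the data do not measure binding. RefSeq windows were matched for 5 of the 7 genes, all but Tnfsf12 and Tnfsf9.

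The family's UMIs were split mainly between innate immune cells and stromal cells. Neutrophil-like cells held most UMIs of Tnf and Tnfrsf1b, FAP-like cells most of Tnfrsf1a, Tnfrsf12a and Tnfsf12, and dendritic-like cells, with T or NK-like and resident macrophage-like cells, nearly all of Tnfrsf9. Over both libraries, FAP-like cells held 83.3% of the 12334 UMIs of Tnfrsf12a, 75.0% of the 2289 of Tnfsf12 and 54.4% of the 11608 of Tnfrsf1a. Neutrophil-like cells held 69.1% of the 7995 UMIs of Tnfrsf1b and 63.6% of the 7290 of Tnf. The 1519 UMIs of Tnfsf9 were spread more widely, with 33.7% in FAP-like cells. Of all kept UMIs, FAP-like cells held 16122732 of 27598413 at 2 h and 19573400 of 35127600 at 9 h. Their shares of Tnfrsf1a and Tnfsf9 were not above that. Among classes with at least 50 cells, neutrophil-like cells had the highest Tnfrsf1a level at both times (369 and 224 CPM). Tnfrsf9 had 358 UMIs in all, 53.1% of them in dendritic-like cells.

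**Figure D1:**
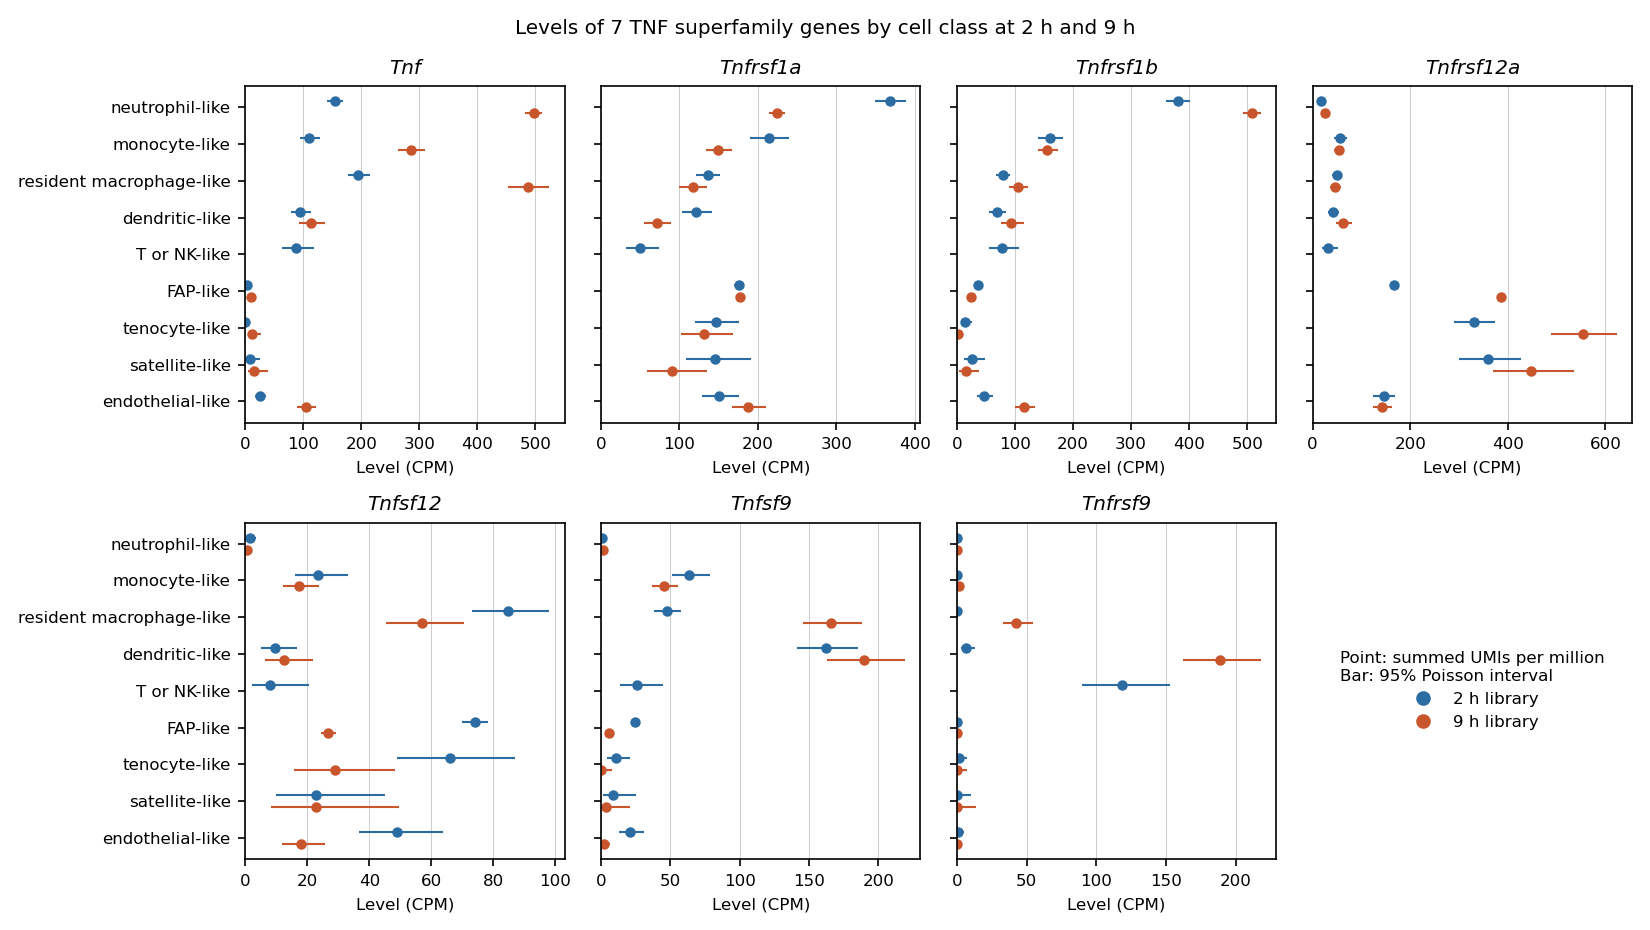
Level in CPM (x axis, a separate linear scale per gene) of the 7 genes in each cell class with at least 50 cells (y axis), with 95% Poisson intervals, at 2 h (blue) and 9 h (orange). Tnf and Tnfrsf1b were highest in neutrophil-like cells at 9 h (497 and 508 CPM), while Tnfrsf12a was highest in the stromal and muscle stem cell classes.

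**Figure D2:**
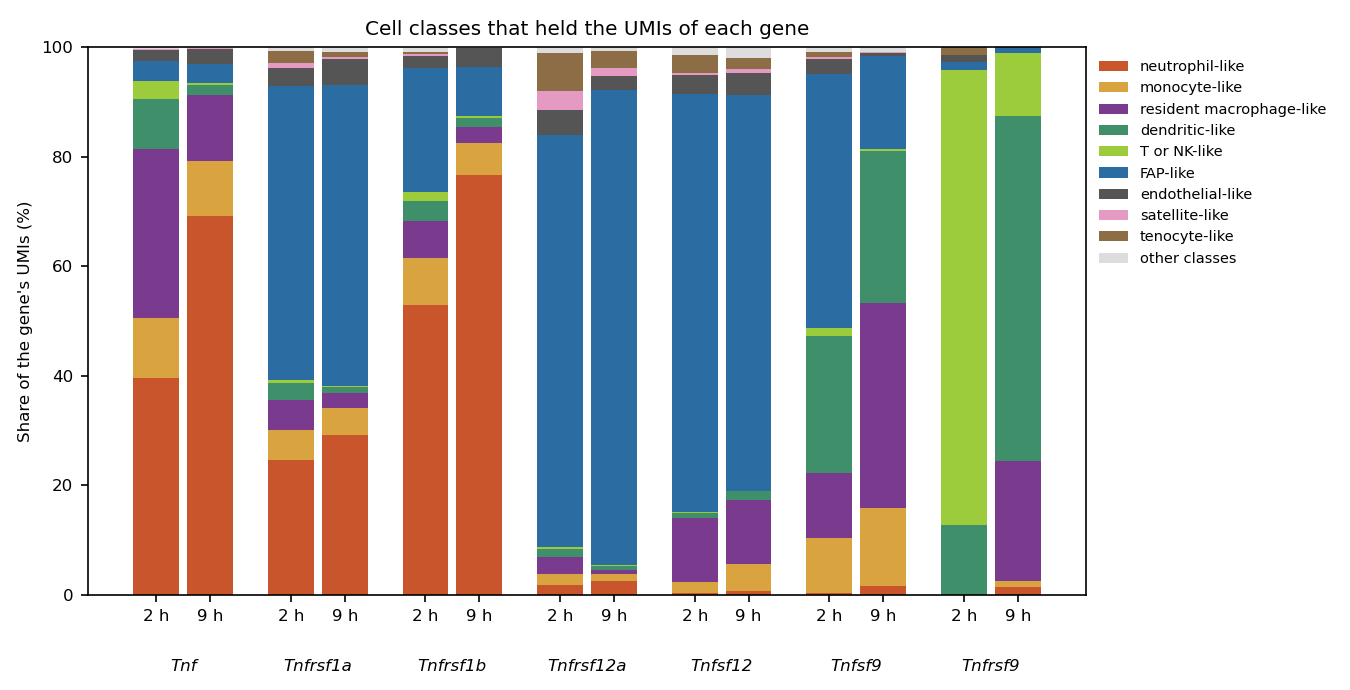
Share of each gene's UMIs (y axis, percent) that each cell class held at 2 h (left bar of a pair) and 9 h (right bar). The neutrophil-like share of Tnf was 39.5% at 2 h and 69.1% at 9 h, and the FAP-like share of Tnfrsf12a was 75.2% and 86.7%.

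Among the ligands, Tnf was higher at 9 h in neutrophil-like, macrophage-like and monocyte-like cells. In neutrophil-like cells it was 154 CPM (interval 141 to 168) at 2 h and 497 CPM (482 to 512) at 9 h, a ratio of 3.22 (2.94 to 3.53). In resident macrophage-like cells it was 195 CPM at 2 h and 487 CPM at 9 h, a ratio of 2.5 (2.21 to 2.83). In monocyte-like cells it was 110.5 CPM and 286 CPM, a ratio of 2.59 (2.16 to 3.11). Dendritic-like cells had 95.2 CPM and 114 CPM, a ratio of 1.19 whose interval (0.915 to 1.55) includes 1. At 2 h resident macrophage-like cells had the highest level, 1.26 times that of neutrophil-like cells (1.11 to 1.44). At 9 h these 2 classes did not differ beyond counting error (ratio 1.02, 0.942 to 1.11), and both were above monocyte-like cells.

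The share of cells with a Tnf UMI moved the same way once depth was made equal. After thinning each cell to 1000 UMIs, 13% of 1538 neutrophil-like cells had a Tnf UMI at 2 h and 27.2% of 3963 at 9 h (22.2% and 37.3% without thinning). In resident macrophage-like cells the thinned shares were 15.8% and 26.0%, and in monocyte-like cells 15.5% and 20.2%, with overlapping intervals in the latter (10.5 to 21.8 and 16.2 to 24.8). The share of all Tnf UMIs held by neutrophil-like cells was 39.5% at 2 h and 69.1% at 9 h, while these cells were 33.3% and 52.6% of all kept cells. Resident macrophage-like cells held 30.7% and 12.1% of Tnf UMIs while being 6.33% and 2.87% of cells. Fewer cells of a class in a library therefore went with a smaller share of UMIs although the level per UMI was higher.

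The Tnf difference in neutrophil-like cells lay mostly between clusters. Only 2 clusters held at least 50 cells of both libraries. In the Ifitm1-led cluster (803 and 456 cells) Tnf was 189 CPM at 2 h and 209.5 CPM at 9 h, a ratio of 1.11 (0.895 to 1.36). In the Pglyrp1-led cluster (795 and 131 cells) it was 123 CPM and 127 CPM, a ratio of 1.03 (0.678 to 1.52). Over these clusters together the ratio was 1.245 (1.04 to 1.49). The clusters made almost wholly of 9 h cells had more: 348 CPM in the Cstdc4-led cluster (1678 cells), 582 CPM in the Dedd2-led cluster (1006 cells) and 706 CPM in the Ccrl2-led cluster (1016 cells), whose leading genes include Ccl3, Ccl4 and Il1a. At 9 h the Ccrl2-led cluster was 5.56 times as high as the Pglyrp1-led one (3.86 to 8.33). Monocyte-like cells split in the same way at the finer resolution of 2. Their Plac8-led cells (166 and 33) had 96.5 CPM (80.4 to 114.8) and 148.5 CPM (97.9 to 216.1), a ratio of 1.54 whose interval (0.976 to 2.35) includes 1, and the Chil3-led cells, 327 at 9 h, had 299 CPM (275 to 325). Resident macrophage-like cells were higher at 9 h in both of their finer clusters, at 223 CPM and 473 CPM in Pf4-led and 149 CPM and 517 CPM in Retnla-led cells.

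**Figure D3:**
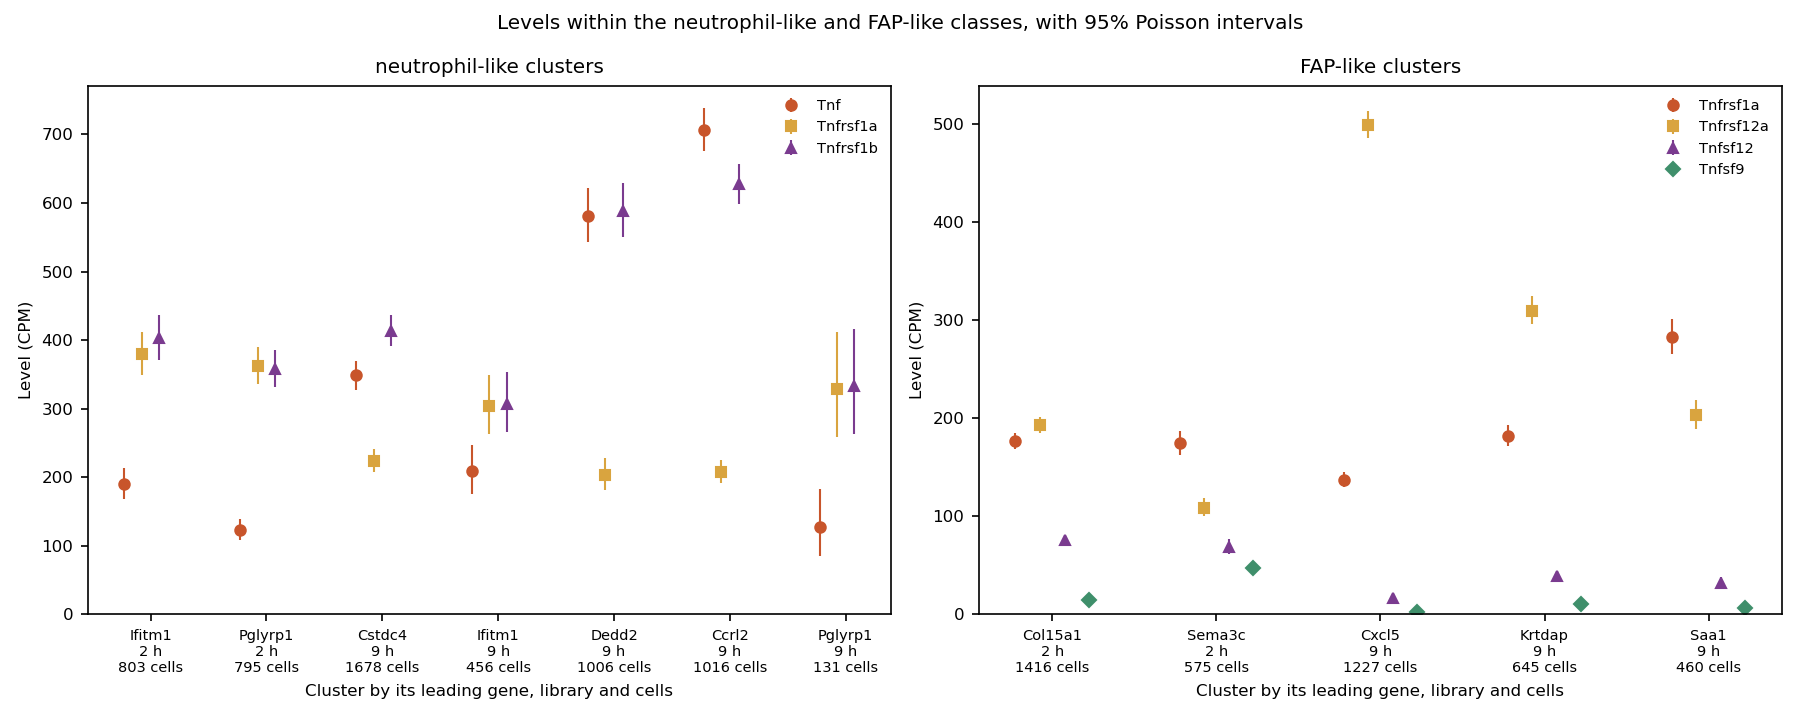
Levels in CPM (y axis, from 0) with 95% Poisson intervals in each cluster of neutrophil-like cells (left) and FAP-like cells (right) that had at least 50 cells in a library; the x axis gives the cluster's leading gene, the library and its cells. Tnf reached 706 CPM in the Ccrl2-led neutrophil-like cluster at 9 h, and Tnfrsf12a 499 CPM in the Cxcl5-led FAP-like cluster at 9 h.

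In FAP-like and endothelial-like cells Tnf was found together with neutrophil markers. FAP-like cells had 3.10 CPM at 2 h and 10.5 CPM at 9 h, a ratio of 3.38 (2.47 to 4.70). The neutrophil gene S100a8 was 924 CPM in these cells at 9 h against 50102 CPM in neutrophil-like cells, and scaling the neutrophil-like Tnf level by the S100a8 levels gives 9.16 CPM for FAP-like cells at 9 h and 1.45 CPM at 2 h. The 111 FAP-like cells with a Tnf UMI at 9 h had 15223 CPM of the 11 neutrophil markers against 1304 CPM in the others. In endothelial-like cells Tnf was 25.3 CPM and 105 CPM, a ratio of 4.16 (2.77 to 6.44), and the same scaling gives 6.08 and 65.2 CPM. Their neutrophil marker sum was 5769 CPM at 2 h and 14727 CPM at 9 h, with none of the 11 at 0, and 36596 CPM in the 74 cells with a Tnf UMI at 9 h. Without the cells of highest doublet score the endothelial-like ratio was 2.19 (1.27 to 3.94). The part of neutrophil RNA in these levels was not tested beyond these values.

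Tnfsf12 (TWEAK) was lower at 9 h in the stromal cells that held most of it. In FAP-like cells it was 73.9 CPM (69.8 to 78.3) at 2 h and 26.8 CPM (24.5 to 29.2) at 9 h, so that the 2 h level was 2.76 times the 9 h level (2.49 to 3.07). Both clusters of 2 h FAP-like cells, at 76.0 and 69.1 CPM, were above all 3 of the 9 h clusters, which ranged from 16.5 CPM (Cxcl5-led) to 38.8 CPM (Krtdap-led). The thinned share of FAP-like cells with a UMI was 5.96% at 2 h and 2.75% at 9 h. Among classes with at least 50 cells, resident macrophage-like cells had the highest level at both times, 84.8 CPM and 57.0 CPM, and the 2 h level was 1.49 times the 9 h level (1.14 to 1.95). At 2 h they did not differ from FAP-like cells beyond counting error (ratio 1.15, 0.977 to 1.34). Tenocyte-like cells had 66.0 CPM and 28.8 CPM, and endothelial-like cells 48.8 CPM and 17.9 CPM on 83 UMIs, too few to be counted as measured. Neutrophil-like cells, with 5 UMIs at each time, were at 1.42 CPM and 0.607 CPM. The 9600 bases of Tnfsf12 lie wholly inside the readthrough gene Tnfsfm13 on the same strand, not analysed here, so reads of Tnfsf12 and Tnfsfm13 may not be told apart. They also lie partly opposite the antisense gene Tnfsf13os, which had 31 UMIs of its own.

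Tnfsf9 (4-1BBL) moved in opposite directions in stromal cells and macrophages. In FAP-like cells it was 24.9 CPM (22.5 to 27.4) at 2 h and 5.67 CPM (4.67 to 6.83) at 9 h, and the 2 h level was 4.39 times the 9 h level (3.55 to 5.46). Within the 2 h FAP-like cells the Sema3c-led cluster, which also leads with Pi16 and Dpp4, had 47.5 CPM and the Col15a1-led cluster 14.97 CPM, a ratio of 3.18 (2.59 to 3.90). At 9 h the 3 clusters had 2.41, 6.55 and 10.7 CPM, all below both 2 h clusters. The share of cells with a Tnfsf9 UMI after thinning was 2.12% at 2 h and 0.688% at 9 h.

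In resident macrophage-like cells Tnfsf9 was 47.3 CPM at 2 h and 166 CPM at 9 h, a ratio of 3.51 (2.78 to 4.47). The higher level was carried by some of the cells: 18.4% of 310 cells had a UMI at 2 h and 24.4% of 234 at 9 h, the largest number in 1 cell was 6 and 24 UMIs, and the thinned shares were 3.30% (1.59 to 5.99) and 9.69% (6.17 to 14.3). Splitting the class at a finer resolution gave 165 CPM in Pf4-led and 172 CPM in Retnla-led cells at 9 h, against 54.7 and 35.4 CPM at 2 h, so both kinds of cell showed the difference. At the coarser resolution of 0.5, where no dendritic-like class of 100 cells in each library remained, the ratio was 1.69 (1.44 to 1.99). Dendritic-like cells had the highest level at 2 h, 162 CPM, 2.55 times that of monocyte-like cells (1.98 to 3.30). Their level at 9 h was 189.7 CPM, a ratio of 1.17 (0.956 to 1.43). In the Cd209a-led cells of the finer clustering, the kind that held both times, it was 162.5 CPM and 122 CPM, a ratio of 0.752 (0.563 to 0.993), and the Ccl22-led cells found at 9 h had 279.9 CPM. Monocyte-like cells had 63.6 CPM and 45.2 CPM. Neutrophil-like cells had 2 and 10 UMIs in all, at 0.570 CPM and 1.21 CPM. Tnfsf9 overlaps the antisense lincRNA gene Gm11110 by 618 bases.

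Among the receptors, Tnfrsf1a (TNFR1) was found in every class with at least 50 cells, from 50.1 CPM in T or NK-like cells at 2 h to 369 CPM in neutrophil-like cells at 2 h. For the T or NK-like cells, scaling the neutrophil-like level by S100a8 gives 13.4 CPM. Scaling the FAP-like level by the FAP gene Dcn gives 23.6 CPM for them. The part of RNA from other cells in the T or NK-like level was not tested. FAP-like cells had 176 CPM (170 to 183) at 2 h and 178 CPM (172 to 184) at 9 h, a ratio of 1.01 (0.960 to 1.06). That near equality hid a spread among the 9 h cells. The 2 h clusters were alike, at 177 and 174 CPM (ratio 1.01, 0.934 to 1.10), whereas at 9 h the Cxcl5-led cluster had 137 CPM, the Krtdap-led 182 CPM and the Saa1-led 283 CPM. The Saa1-led cells were 2.06 times as high as the Cxcl5-led (1.90 to 2.24), and without them the FAP-like ratio was 0.878 (0.832 to 0.927).

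Blood-derived cells had less Tnfrsf1a at 9 h. Neutrophil-like cells had 369 CPM at 2 h and 224 CPM at 9 h, a 2 h level 1.65 times the 9 h level (1.53 to 1.77). The thinned share of these cells with a UMI was 31.5% and 20.8%. Within the Ifitm1-led cluster the ratio of 9 h to 2 h was 0.802 (0.679 to 0.944) and within the Pglyrp1-led cluster 0.906 (0.705 to 1.15), and the 3 clusters of 9 h cells had 204 to 224 CPM. Monocyte-like cells had 214 CPM and 149 CPM, and dendritic-like cells 121 CPM and 70.9 CPM, with 2 h levels 1.43 times (1.21 to 1.68) and 1.70 times (1.27 to 2.30) the 9 h levels. In Cd209a-led dendritic-like cells, the kind that held both times (142 and 61 cells), the ratio of 9 h to 2 h was 0.779, given here without an interval. Resident macrophage-like cells, at 136 CPM and 117 CPM, did not differ beyond counting error (ratio 0.859, 0.707 to 1.04). Endothelial-like cells went the other way, with 151 CPM and 187 CPM and a ratio of 1.24 (1.02 to 1.51). Scaling the neutrophil-like Tnfrsf1a level by S100a8 gives 14.5 and 29.4 CPM for endothelial-like cells. Their ratio was 1.17 in the resolution 2 clusters that held both libraries and 1.36 without the cells of highest doublet score. The part of neutrophil RNA in the endothelial-like difference was not tested. None of these differences reached 2-fold.

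Tnfrsf1b (TNFR2) was highest in neutrophil-like cells at both times. Their level was 380.4 CPM (360 to 401) at 2 h and 508 CPM (493 to 524) at 9 h, a ratio of 1.34 (1.26 to 1.42), and was 2.36 times (2.05 to 2.74) and 3.25 times (2.91 to 3.65) that of monocyte-like cells, the next class. The thinned share of cells with a UMI was 31.9% and 36.9%. The higher level sat in 2 of the 3 clusters of 9 h cells, with 627 CPM in the Ccrl2-led and 589 CPM in the Dedd2-led cluster, while the Cstdc4-led cluster had 413.6 CPM (391 to 437), overlapping the Ifitm1-led cluster at 2 h (371 to 437). In the clusters that held both times the level was lower at 9 h: 403 CPM and 307 CPM in the Ifitm1-led cluster (ratio 0.763, 0.647 to 0.897) and 358 CPM and 333 CPM in the Pglyrp1-led one (ratio 0.930, 0.724 to 1.18). For both clusters pooled the ratio was 0.833 (0.729 to 0.949). The 2 TNF receptors thus differed in neutrophil-like cells: Tnfrsf1a was lower and Tnfrsf1b higher in the class as a whole, and both were lower in the Ifitm1-led cluster.

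Other classes had less Tnfrsf1b. Monocyte-like cells had 161 CPM and 156 CPM, and resident macrophage-like and dendritic-like cells between 69.0 and 105 CPM, with ratios of 1.33 (1.06 to 1.66) and 1.36 (1.005 to 1.84). In Cd209a-led dendritic-like cells the level was 68.8 CPM and 56.5 CPM, a ratio of 0.822 (0.528 to 1.25), and the Ccl22-led cells had 143.6 CPM at 9 h. FAP-like cells had 35.7 CPM and 25.2 CPM, a 2 h level 1.42 times the 9 h level (1.25 to 1.60), and the Sema3c-led cluster was 2.07 times as high as the Col15a1-led at 2 h (1.75 to 2.44). Scaling by S100a8 gives 3.57 and 9.37 CPM of neutrophil-like Tnfrsf1b for FAP-like cells, and 15.01 and 66.7 CPM for endothelial-like cells. The latter had 47.0 CPM and 116 CPM, a ratio of 2.47 (1.81 to 3.43) that was 1.28 (0.802 to 2.06) without the cells of highest doublet score.

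Tnfrsf12a (Fn14) was higher at 9 h in the stromal cells that held most of it. FAP-like cells had 168 CPM (162 to 174) at 2 h and 387 CPM (378 to 396) at 9 h, a ratio of 2.31 (2.21 to 2.41). The share of FAP-like cells with a UMI was 13.4% at 2 h and 28.7% at 9 h after thinning, and 50.5% and 77.7% without. At 2 h the Col15a1-led cluster had 193 CPM and the Sema3c-led cluster 109 CPM, a ratio of 1.77 (1.61 to 1.95). At 9 h the Cxcl5-led cluster had 499 CPM, the Krtdap-led 309.8 CPM and the Saa1-led 203 CPM. The lowest 9 h cluster was therefore close to the highest 2 h cluster, with overlapping intervals (189 to 219 and 185 to 201), and the order of the 9 h clusters was the reverse of that for Tnfrsf1a.

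Tenocyte-like and satellite-like cells had at least as much Tnfrsf12a. Satellite-like cells, the stem cells of muscle, had 359 CPM at 2 h and 447 CPM at 9 h (ratio 1.24, 0.959 to 1.61) on 80 and 69 cells. Tenocyte-like cells had 329.8 CPM (290.1 to 373) and 554 CPM (490 to 624), a ratio of 1.68 (1.41 to 2.00) on 80 and 63 cells. At 9 h neither satellite-like and FAP-like cells (ratio 1.15, 0.954 to 1.38) nor tenocyte-like and satellite-like cells (1.24, 0.995 to 1.55) differed beyond counting error. Tenocyte-like cells were above FAP-like cells, which had 387 CPM (378 to 396), with intervals apart. Endothelial-like cells were level at 145 CPM and 142 CPM (ratio 0.978, 0.796 to 1.20). Neutrophil-like cells were lowest, at 17.4 CPM and 25.8 CPM. FAP-like cells held both Fn14 and TWEAK transcripts, and these went opposite ways between the libraries. At 9 h 80.0% of the 441 FAP-like cells with a Tnfsf12 UMI also had a Tnfrsf12a UMI, against 77.1% of the others, and their median depth was 9812 UMIs against 7826. At 2 h these shares were 52.1% and 49.5%, with median depths of 9074.5 and 7168 UMIs.

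Tnfrsf9 (4-1BB) was rare at 2 h, when T or NK-like cells held 83.1% of its 71 UMIs, and was found mainly in dendritic-like cells at 9 h, which held 63.1% of 287. In T or NK-like cells it was 118 CPM (90.1 to 153) at 2 h, 17.5 times the dendritic-like level (8.64 to 40.2). At 9 h these cells, too few to be compared, had 212 CPM (146 to 298). Their smaller share of UMIs at 9 h thus went with fewer cells (103 and 37), not with a lower level. Dendritic-like cells had 9 UMIs or 6.75 CPM (3.09 to 12.8) at 2 h and 181 UMIs or 188.7 CPM (162 to 218) at 9 h, a ratio of 28.0 (14.4 to 62.1). The number of these cells with a UMI was 4 of 143 at 2 h and 40 of 117 at 9 h, and the thinned shares were 0.709% and 14.2%. The neutrophil-like, FAP-like and endothelial-like classes had at most 4 UMIs each in a library. Tnfrsf9 lies partly opposite the protein-coding gene Camta1, over 28781 bases.

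At a finer clustering resolution the dendritic-like cells split into 2 kinds. A Cd209a-led cluster held 142 cells at 2 h and 61 at 9 h, and a Ccl22-led and Ccr7-led cluster, genes known from mature, migrating dendritic cells, held 56 cells at 9 h. The latter had 379.6 CPM of Tnfrsf9 (322 to 444), with 156 UMIs in 32 of its cells. In the Cd209a-led cells the level was 4.53 CPM (1.66 to 9.87) at 2 h and 45.6 CPM (29.5 to 67.3) at 9 h. The ratio for the whole class therefore sets Cd209a-led cells at 2 h against a mixture at 9 h, and the summed level of the 11 dendritic markers in the class was 1851 CPM at 2 h and 8618 CPM at 9 h. The ligand Tnfsf9 was also higher in the Ccl22-led cells, at 279.9 CPM (231 to 336) against 122 CPM (94.7 to 155) in Cd209a-led cells at 9 h, whereas Tnf was 97.3 CPM and 126 CPM with overlapping intervals. Ligand and receptor were found in some of the same cells. At 9 h 24 of the 54 dendritic-like cells with a Tnfsf9 UMI (44.4%) also had a Tnfrsf9 UMI, against 25.4% of the others. Median depths were 7803 and 7485 UMIs. These shares pool the 2 kinds of cell, which differed in both genes. Of 56 Ccl22-led cells 33 had a Tnfsf9 UMI and 32 a Tnfrsf9 UMI, and of 61 Cd209a-led cells 21 and 8. Overlap of the 2 genes within each kind was not tested.

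Resident macrophage-like cells had no Tnfrsf9 UMI in 310 cells at 2 h, which allows up to 1.39 CPM at 3 counts, and 63 UMIs at 9 h, or 42.7 CPM (32.8 to 54.7). These came from 11 of 234 cells, with 22 UMIs in 1 cell, and 60 of them lay in the Retnla-led cells of the finer clustering. The 11 cells had 1666 CPM of the 11 dendritic markers against 623 CPM in the others, and 611 CPM of the 13 T or NK markers against 123 CPM, at a median of 10716 UMIs against 5197. The part of other cell types in these UMIs was not tested.

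**Figure D4:**
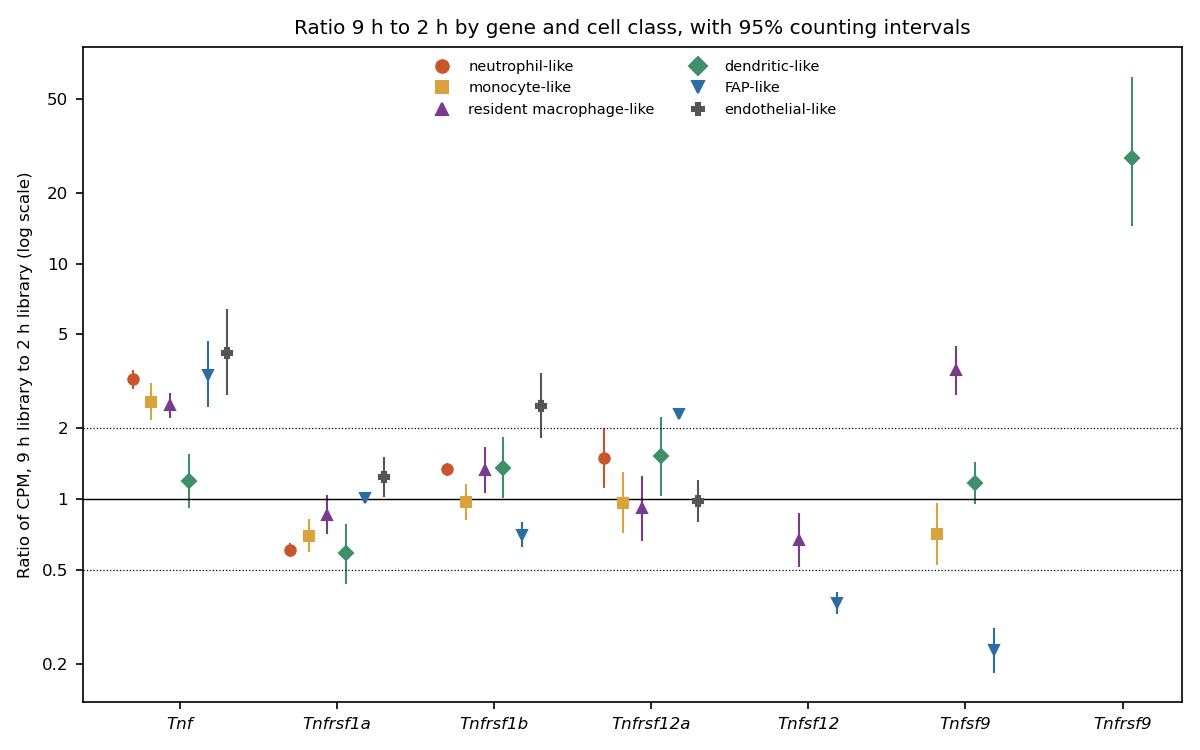
Ratio of the 9 h to the 2 h level (y axis, log scale) for each gene in the 6 classes compared, with 95% counting intervals; the dotted lines mark 2-fold and a point is drawn where the gene had at least 100 UMIs over both libraries. Tnf lies above 2 in 5 of the 6 classes, Tnfsf9 lies at 0.228 in FAP-like and 3.51 in resident macrophage-like cells, and Tnfrsf9 in dendritic-like cells is at 28.0. The part of neutrophil RNA in the Tnf level of FAP-like and endothelial-like cells was not tested.

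Beside all genes with at least 100 UMIs in a class, the members' counts read as follows. In FAP-like cells 6 members were measured, of which 2 (Tnf and Tnfrsf12a) were at least 2-fold higher and 2 (Tnfsf12 and Tnfsf9) at least 2-fold lower at 9 h, where 15.9% of 10467 genes were that much higher and 20.6% that much lower. In neutrophil-like cells 1 of 4 (Tnf) was higher and 0 lower, against 9.3% and 10.1% of 4926 genes. In resident macrophage-like cells 2 of 6 (Tnf and Tnfsf9) were higher and 0 lower, against 6.21% and 9.92% of 4283 genes. In endothelial-like cells 2 of 4 (Tnf and Tnfrsf1b) were higher and 0 lower, against 8.7% and 10.6% of 4136. For these 2 calls, and for Tnf in FAP-like cells, the part of neutrophil RNA was not tested. Scaling by S100a8 gives 65.2 of 105 CPM for endothelial-like Tnf at 9 h and 66.7 of 116 CPM for Tnfrsf1b. For FAP-like Tnf at 9 h it gives 9.16 of 10.5 CPM. Without the cells of highest doublet score the endothelial-like Tnfrsf1b ratio was 1.28. In monocyte-like cells 1 of 5 (Tnf) was higher and 0 lower, against 5.72% and 8.84% of 3937. In dendritic-like cells 1 of 6 (Tnfrsf9) was higher and 0 lower, against 7.02% and 6.92% of 2962.

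Other genes of the pathway were read from 4 lists: 15 further ligands, 24 further receptors, 16 proteins of the receptor complex and its regulators, and 7 that govern the release and mRNA decay of TNF. In neutrophil-like cells 7 genes of these lists were at least 2-fold higher and 0 lower, where 9.3% of all measured genes were higher and 10.1% lower. The ligand Tnfsf14 (LIGHT) was 33.9 CPM at 2 h and 85.9 CPM at 9 h (1 of 3 measured). The receptors Tnfrsf26 (32.5 and 166 CPM) and Fas, a death receptor (87.5 and 230.4 CPM), were higher of 6 measured. Of 11 measured genes of the receptor complex 4 were higher, with the largest ratios for Casp8 (4.72, 3.42 to 6.66), Tnfaip3, which encodes the feedback inhibitor A20 (3.44, 3.18 to 3.73), and Traf1 (2.96, 2.49 to 3.55). The list's median log2 ratio, on the log2(CPM + 10) scale, was 0.19 beside -0.07 for all 4926 genes. Of 6 measured genes of release and decay 0 passed 2-fold. All these ratios are for the whole class. The neutrophil-like clusters that held at least 50 cells of both libraries had 1598 of 1634 cells at 2 h and 587 of 4287 at 9 h. Ratios of the list genes within those clusters were not taken.

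In FAP-like cells the lists differed, beside 15.9% of all measured genes higher and 20.6% lower. Of 14 measured genes of the receptor complex 3 were lower, a share near that of all genes: Ripk1, the kinase at the receptor (189 and 60.3 CPM), Traf5 (10.0 and 2.71 CPM) and Birc3, which encodes the ubiquitin ligase cIAP2 (157 and 75.9 CPM), and 1 was higher, Traf3 (14.8 and 32.6 CPM), while the list's median log2 ratio was 0.22. Of the 7 genes of release and decay 3 were lower: Zfp36 and Zfp36l1, whose proteins speed the decay of mRNAs such as that of Tnf, at 1013 and 338 CPM and at 1475 and 484 CPM, and Timp3, an inhibitor of the TNF-shedding protease, at 1381 and 678 CPM. The median of the release and decay list was -0.75, beside 0.01 for all 10467 genes. All 3 measured ligands were lower, among them Eda (25.8 and 3.58 CPM) and Tnfsf13 (11.1 and 3.73 CPM). Of 8 measured receptors 3 were higher and 1, Fas (40.1 and 19.3 CPM), was lower. Tnfrsf11b, the decoy receptor osteoprotegerin, stood highest, at 0.558 CPM at 2 h and 32.3 CPM at 9 h, a ratio of 57.8 (30.3 to 127).

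In dendritic-like cells both measured receptors were higher, where 7.02% of 2962 measured genes were higher and 6.92% lower. Tnfrsf11a (RANK) was at 13.5 and 87.6 CPM (ratio 6.49, 3.87 to 11.5) and Cd40 at 40.5 and 164 CPM (ratio 4.04, 2.95 to 5.61). Both ratios set Cd209a-led cells at 2 h against a mixture with 56 Ccl22-led cells at 9 h. In endothelial-like cells Tnfaip3 was 40.7 and 165 CPM (ratio 4.06, 2.95 to 5.70). Their neutrophil marker sum was 5769 and 14727 CPM, and scaling the neutrophil-like Tnfaip3 level by S100a8 gives 7.90 and 90.5 CPM; the part of neutrophil RNA in the difference was not tested beyond these values. Ripk1 was 207 and 66.2 CPM in endothelial-like cells. Of 9 measured genes of the receptor complex in endothelial-like cells 1 was higher and 1 lower, beside 8.7% and 10.6% of 4136 genes. Of 4 measured receptors there 0 passed 2-fold, and of 6 genes of release and decay 1 was lower. The 2 h level of Ripk1 was 3.13 times the 9 h level there (2.47 to 3.97) and 3.14 times in FAP-like cells (2.93 to 3.36), with overlapping intervals. In monocyte-like cells 2 of 5 measured receptors were higher and 2 lower, where 5.72% of 3937 measured genes were higher and 8.84% lower. The receptors' median log2 ratio was -0.75, beside -0.09 for all these genes. Of 8 measured genes of the receptor complex 2 were higher and 1 lower. Of 5 genes of release and decay 1 was higher, and of 2 ligands 1 was lower. Among them, in monocyte-like cells, Fas (19.8 and 52.8 CPM) and Traf1 (63.6 and 166 CPM) were higher, and Tnfsf13 (127 and 33.6 CPM) lower. Most of these cells were Plac8-led at 2 h (166 of 175) and Chil3-led at 9 h (327 of 360). In resident macrophage-like cells Tnfrsf21 was higher (24.1 and 48.8 CPM) and Tnfsf13, Timp3 and Birc3 lower, with ratios of 0.399 to 0.466. Of all 4283 measured genes there 6.21% were higher and 9.92% lower. The summed level of the 15 FAP markers in resident macrophage-like cells was 4243 CPM at 2 h and 1232 CPM at 9 h. For Timp3, also found in FAP-like cells, the part of FAP RNA in the difference was not tested.

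The genes whose levels followed each member most closely over the 17 class-by-time groups with at least 50 cells were ranked by Pearson correlation of log2(CPM + 10), a description that shares the 2 libraries and their depth. Cd53, Fcer1g and Slfn2 were most like Tnf (r = 0.964, 0.961 and 0.955), and Rhog, Mcl1 and Gpsm3 most like Tnfrsf1b (0.958, 0.952 and 0.951). Trip6, Ttll4 and Pcbp4 were most like Tnfrsf12a (0.962, 0.961 and 0.957). The values were lower for Tnfsf12 (Camk1, Ptpra and Vwa5a, 0.915 to 0.905), Tnfsf9 (Atpif1, Rasgef1b and H2-DMa, 0.940 to 0.920), Tnfrsf9 (Slamf1, Serpinb6b and Il2ra, 0.880 to 0.860) and Tnfrsf1a (Tirap, Lamp2 and Mocos, 0.860 to 0.824). With log2(CPM + 1) the most alike gene changed for 3 of the 7 members, Tnfrsf1b, Tnfsf12 and Tnfrsf9. For Tnfrsf1b the list became Mboat7, Pts and Lilra6.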

How the data were processed

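The deposited values are counts, UMIs per gene and cell barcode. Per the submitters' processing notes, the authors ran Cell Ranger 5.0.0 with the mm10 build; no source names the annotation. The files list 5729 barcodes with 28635763 UMIs at 2 h and 8790 with 36042307 at 9 h. Cells with under 200 genes or 500 UMIs (513 and 264), then over 20% mitochondrial UMIs (316 and 379), were removed. Scrublet called 6 and 0 doublets, under 0.5% of cells, so its calls were set aside; an alternative left out the cells of highest score (225 and 573). Both libraries were clustered together without batch correction in Scanpy 1.11.5: UMIs scaled to 10000, log transformed, 2000 variable genes without TNF superfamily genes, 30 principal components, 15 neighbours, Leiden resolution 1, seed 0. A cluster took the class of highest marker score among lists with at least 3 markers each detected in 10% of its cells, if that score was 1.2 times the next and its 10 leading genes included at least as many of its own markers as of any other list. The value 1.2 and the detection rule were set after the clusters had been seen; 1.5 would leave only the tenocyte-like cluster, at 1.30, unnamed. In all, 3 FAP-like clusters (Cxcl5-led, Krtdap-led and Saa1-led) had no FAP marker among their leading genes and no marker of another class.

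UMIs were summed per class and library. Ratios carry exact conditional binomial intervals, shares exact Clopper-Pearson intervals, all at 95%. For shares of cells, each cell was thinned to 1000 UMIs, shallower cells left out. A gene was measured with at least 100 UMIs over both libraries and counted as higher or lower past 2-fold. Classes with at least 100 cells in each library were compared. The named genes were the 7 members, the 3 genes most like each, and of each list up to the 3 highest and 3 lowest ratios at 10 CPM or more. The interval code was tested on simulated data. Of the 32285 genes, 99.8% had their identifier in GENCODE M21 for positions; promoter windows came from RefSeq (GRCm38.p6). TMM factors used edgeR 4.0.16 and size factors DESeq2 1.42.0 in R 4.3.3. The members and lists were chosen with earlier results of these data known, and Scn7a, a leading gene of the Saa1-led cluster, was left off the glial list with those results known, which lets that cluster count as FAP-like.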

Additional observations from a re-analysis of the deposited data

Results flagged for a closer look

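The genes Tnfrsf1a, Tnfrsf1b and Tnfsf9 went opposite ways between classes, with counting intervals that exclude 1 on both sides; with 1 library per time the difference between classes was not tested. Tnfrsf1a had ratios of 9 h to 2 h of 0.608 in neutrophil-like, 0.699 in monocyte-like and 0.587 in dendritic-like cells, and 1.24 in endothelial-like cells. In clusters that held both times the Tnfrsf1a ratio was 0.840 in neutrophil-like and 0.779 in Cd209a-led dendritic-like cells, given here without intervals. For endothelial-like cells it was 1.17 in the resolution 2 clusters that held both and 1.36 without the cells of highest doublet score. Scaling by S100a8 gives 14.5 and 29.4 CPM of neutrophil-like Tnfrsf1a for endothelial-like cells, and the part of neutrophil RNA was not tested. Tnfrsf1b had a ratio of 0.706 in FAP-like cells, and of 1.34 in neutrophil-like, 1.33 in resident macrophage-like, 1.36 in dendritic-like and 2.47 in endothelial-like cells. Within clusters that held both times it was 0.833 in neutrophil-like cells and 0.822 (0.528 to 1.25) in Cd209a-led dendritic-like cells, and without the cells of highest doublet score the endothelial-like ratio was 1.28 (0.802 to 2.06). Tnfsf9 had ratios of 0.228 in FAP-like and 0.710 in monocyte-like cells, and 3.51 in resident macrophage-like cells.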

How the results depend on the processing

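No paired analysis was possible because each time has 1 library. The 31 ratios of members in the 6 classes were recomputed under 12 alternatives, which gave 298 values; 293 stayed on the same side of 2-fold and 0 reversed a value past 2-fold. The exceptions were Tnf in neutrophil-like cells, at 1.245 in the clusters that held both libraries, Tnf in monocyte-like cells, at 1.54 in the resolution 2 clusters that held both, Tnfrsf1b in endothelial-like cells without the cells of highest doublet score (1.28), Tnfsf12 in resident macrophage-like cells at resolution 2 (0.499) and Tnfsf9 in these cells at resolution 0.5 (1.69). A change of direction was counted only for ratios past 2-fold. Some of the others crossed 1 in clusters that held both libraries. Among them were Tnfrsf1b in neutrophil-like (1.34 to 0.833) and dendritic-like cells (1.36 to 0.822), and Tnfsf9 in dendritic-like cells (1.17 to 0.752). Ratios in each gene's main class moved beyond their counting interval as follows. TMM gave 3.56 for Tnf, 1.11 for Tnfrsf1a, 1.48 for Tnfrsf1b and 2.53 for Tnfrsf12a. Median-of-ratios factors gave 3.59, 1.15, 1.49 and 2.64 for these and 0.415 for Tnfsf12. These scalings shift all log2 ratios of a class by 0.13 and 0.20 in FAP-like, 0.14 and 0.16 in neutrophil-like, 0.21 and 0.28 in monocyte-like and -0.11 and -0.15 in dendritic-like cells. Without the Saa1-led cluster Tnfrsf1a was 0.878 and Tnfrsf12a 2.55 in FAP-like cells, and in neutrophil-like clusters holding both libraries Tnfrsf1b was 0.833. Tnfrsf9 in dendritic-like cells was 10.05 (4.03 to 29.96) in the resolution 2 cluster that held both. These cluster choices and the run without the 12 shared barcodes were added after seeing the data; the cause of each shift was not tested. Leaving out FAP-like clusters that lead with no FAP marker leaves 44 cells at 9 h and gave no value, and at resolution 0.5 or without the cells of highest doublet score no dendritic-like class of 100 cells in each library was left. Of 94 shares of cells with a UMI, 91 moved when taken at 2000 UMIs or without thinning. Without the minimum of 100 UMIs, 12 of 12 counts of genes past 2-fold moved by over 1.5 times, in FAP-like cells to 3745 higher and 5991 lower from 1660 and 2153. Genes under about 100 UMIs, Tnfrsf9 outside dendritic-like cells among them, are limited by depth.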

Other observations

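Classes too small to be compared also held members of the family. In T or NK-like cells at 9 h (37 cells) Tnfrsf9 was 212 CPM (146 to 298), with a UMI in 32.4% of cells, and Tnf was 89.9 CPM (49.2 to 151). Pericyte or smooth muscle-like cells (32 and 33 cells) had 164 CPM of Tnfrsf1a at 2 h and 199.8 CPM at 9 h, with overlapping intervals, and 119.6 CPM (78.8 to 174) and 265 CPM (196 to 350) of Tnfrsf12a. Their Tnfsf12 level was 88.6 CPM (54.1 to 137) at 2 h and 43.2 CPM (18.7 to 85.1) at 9 h. B-like cells (45 at 2 h) had 1 Tnf UMI, 8 of Tnfrsf1b and 0 of Tnfrsf9.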
